A study of Glycine max with 10 samples.

Results

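The lipoxygenases of developing soybean seeds were followed through filling and maturation, with ages given as days after flowering (DAF). Members were the probe sets that the probe-to-gene table assigns to a single gene whose symbol starts with LOX and a digit or with VLX. This rule took 17 of 37593 probe sets, which stand for 8 genes. The seed types were LOX1.1 (1 probe set), LOX2 (1) and LOX3 (2), and the other types were LOX7 (4), LOX9 (5), LOX10 (1), VLXB (2) and VLXC (1).

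Whole seeds of the field-grown variety Evans, without any added treatment, were collected at 5 ages (25, 30, 40, then 45 and 50 DAF), and RNA from 2 biological replicates per age was hybridised to Affymetrix Soybean Genome Arrays, 1 per sample. All 5 groups share variety, tissue and field, and differ in seed age. Seeds from several plants were pooled for each replicate, so a replicate is a pool and not a single plant, and the number of seeds in a pool also varied with age. The text of the study's results gives 35 DAF for the third age, while its methods and the sample annotation give 40 DAF, which is used here.

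Lipoxygenases are iron-containing dioxygenases that add molecular oxygen to linoleic and linolenic acid and so form fatty acid hydroperoxides. Allene oxide synthase draws on these hydroperoxides for jasmonates, and hydroperoxide lyase splits them into short aldehydes. In soybean the isozymes of LOX1.1, LOX2 and LOX3 are abundant soluble proteins of the mature seed and a known source of beany flavour in meal and soy milk. The VLX genes encode vegetative lipoxygenases, some of which gather in leaf cells as a temporary nitrogen store, much as the vegetative storage proteins do.

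Values are MAS 5.0 signals, a linear measure of probe set brightness, rescaled so that each array has the same median of 309.9, and the mean ± SD of 2 arrays is given for each age. Signals under 50 are treated as low, because the table holds no call of presence or absence. Array medians were 303.8 to 325.2 on the 8 arrays up to 45 DAF and 220.8 and 222.8 at 50 DAF, while array means were 1344.3 to 1425.5. The replicates of 45 DAF correlated at 0.880 across probe sets, against 0.919 to 0.927 at the other ages. Changes are log2 differences fitted with limma across all probe sets, relative to the array median, with p-values adjusted by Benjamini-Hochberg over all of them. In whole seeds, fewer cells of a type and less RNA per cell cannot be told apart. The tissue label was set against the 16 probe sets of cotyledon storage genes (glycinins, conglycinins and Kunitz inhibitors), whose summed signal was 512200 to 735400 over the 10 arrays.

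The seed types and the other types took different courses. LOX1.1 and LOX3 kept high signals on all 10 arrays, and LOX2 fell between 45 and 50 DAF to about 0.313 of its level at 25 DAF. The leading probe sets (highest mean signal) of LOX7, LOX9, VLXB and VLXC fell to between 0.00387 and 0.0434 of their level at 25 DAF. In all 4, every array of 25 and 30 DAF lay above every later one. The sizes of these falls are loosely set, because signals at 50 DAF lay between 4 and 89. With a pseudocount of 50 the log2 changes from 25 to 50 DAF ran from -5.62 (LOX9) to -2.95 (VLXC). Over the 5 ages, 11 of 17 members passed the overall F-test at an adjusted p under 0.01, against 24% of all probe sets. These were 1 of 4 seed-type probe sets (LOX2) and 10 of 13 of the other types. The count was 7 when either array of 25 DAF or 50 DAF replicate 1 was left out, and over all probe sets it then went from 9009 to 5168, 4699 and 1613. When prior variances were not allowed to follow signal it was 0, as it was for all 37593 probe sets. With an ordinary F-test and Benjamini-Hochberg adjustment it was also 0, whereas the study converted such p-values to q-values. By the ordinary F-test 5 of 17 members and 6389 of 37593 probe sets had an unadjusted p under 0.01. The difference between the classes was not tested, and their counts are given as a description.

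LOX1.1 encodes lipoxygenase-1, which forms mainly the 13-hydroperoxide of linoleic acid. Its signals were 49141 and 58887 at 25 DAF, 54242 and 43566 at 30 DAF, 64293 and 59881 at 40 DAF, 56630 and 57650 at 45 DAF, and 47000 and 48858 at 50 DAF. The mean was highest at 40 DAF (62087 ± 3120), followed by 45 DAF (57140 ± 722), 25 DAF (54014 ± 6891), 30 DAF (48904 ± 7549) and 50 DAF (47929 ± 1314). The arrays of 40 DAF lay above those of 45 and 50 DAF, whereas the arrays of 25 and 30 DAF overlapped each other. From 25 to 50 DAF LOX1.1 differed by -0.17 (95% interval -0.66 to 0.33, limma adjusted p = 0.585). This value depends on scaling, since after quantile normalization it was -0.69 with a limma adjusted p of 0.0134, and without centring -0.63 (adjusted p = 0.0552). From 45 to 50 DAF it was -0.25 (adjusted p = 0.429), but -0.76 after quantile normalization (adjusted p = 0.0153) and -0.75 without centring (adjusted p = 0.0374), past the threshold in both.

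LOX3 encodes lipoxygenase-3, which forms both the 9- and the 13-hydroperoxides. The leading of its 2 probe sets, meaning the one with the higher mean signal, gave 60965 and 66993 at 25 DAF, 73023 and 55831 at 30 DAF, 73266 and 73402 at 40 DAF, 64319 and 66827 at 45 DAF, and 78236 and 74238 at 50 DAF. The 50 DAF arrays were the highest of the 10, but by less than the gap between the replicates of 30 DAF. From 25 to 50 DAF the leading probe set differed by 0.25 (95% interval -0.25 to 0.76, limma adjusted p = 0.402) and the other by 0.17 (interval -0.32 to 0.65, adjusted p = 0.581). The sign was not stable, because the leading probe set gave -0.14 after quantile normalization and -0.21 without centring. The 2 LOX3 probe sets correlated at 0.704 over the 10 arrays, of which 2 share each age. Neither passed the overall F-test (limma adjusted p = 0.762 and 0.56).

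LOX2 encodes lipoxygenase-2, the isozyme most tied to hexanal in soybean products, and it was the seed type that passed the test over time. Its signals were 60926 and 80440 at 25 DAF, 69143 and 55881 at 30 DAF, 77773 and 67804 at 40 DAF, 68486 and 63495 at 45 DAF, and 23348 and 20517 at 50 DAF. Both arrays of 50 DAF lay below all 8 earlier arrays, while the arrays of the first 4 ages overlapped. The mean was 65990 ± 3529 at 45 DAF and 21932 ± 2002 at 50 DAF. The fitted fall was 3.01-fold from 45 to 50 DAF (log2 -1.59, 95% interval -2.12 to -1.06, limma adjusted p = 0.00168) and 3.20-fold from 25 to 50 DAF (log2 -1.68, interval -2.21 to -1.15, adjusted p = 0.00051). These intervals did not overlap those of LOX1.1 and LOX3 for the same pairs of ages, but the difference between the genes was not itself tested. LOX2 passed both tests under every one of the 17 alternatives tried, among them each array left out in turn.

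**Figure D1:**
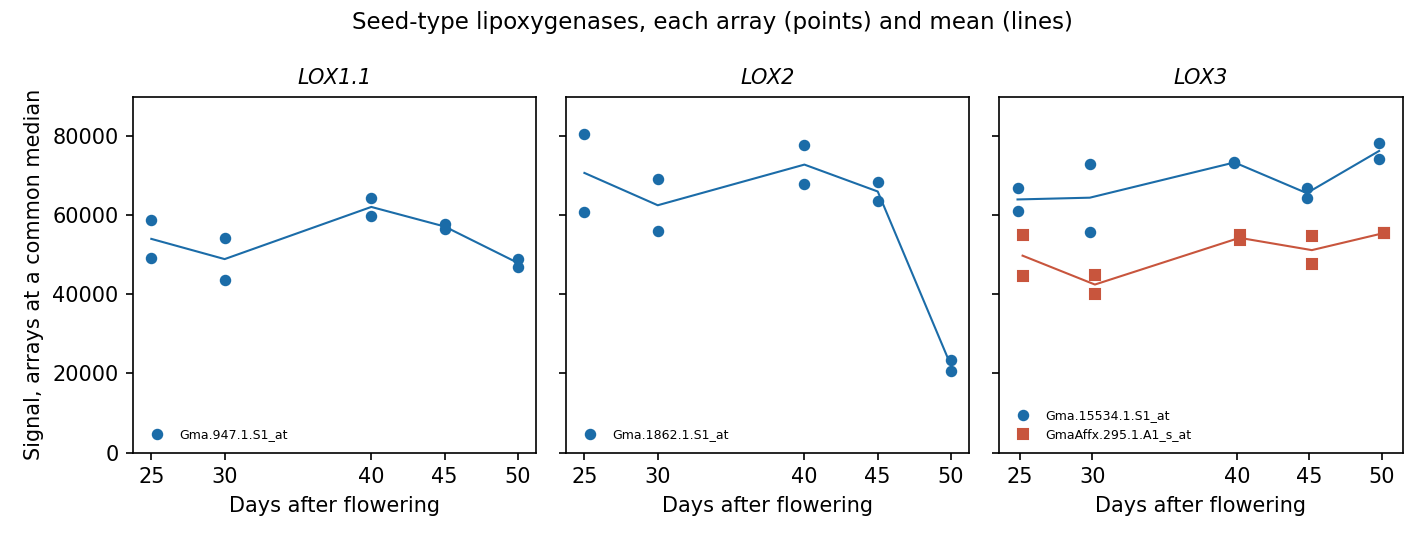
Signals of the seed-type lipoxygenases (vertical axis, linear, arrays brought to a common median) against days after flowering, with a point per array and lines through the means of 2 arrays. LOX2 ended at 21932 ± 2002 while LOX1.1 ended at 47929 ± 1314 and the leading LOX3 probe set at 76237 ± 2827, each to be read against its own earlier values.

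The seed-type signals ranked high on the arrays. LOX1.1 ranked between 30 and 173 among the 37593 signals of an array, the leading LOX3 probe set between 7 and 34, and LOX2 between 9 and 650, its lowest rank being at 50 DAF. These ranks describe the position on the scale and are not a comparison of transcript amounts between genes. The files hold no saturation flag, so compression of differences at the top of the scale was not tested.

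VLXB, a vegetative lipoxygenase, fell in 2 steps by its leading probe set. Its leading probe set gave 4431 and 3458 at 25 DAF, 1508 and 4239 at 30 DAF, 279 and 183 at 40 DAF, 375 and 131 at 45 DAF, and 18 and 60 at 50 DAF. All 4 arrays of 25 and 30 DAF exceeded all 4 of 40 and 45 DAF, which in turn exceeded both of 50 DAF. The first step, 40 and 45 against 25 and 30 DAF, was 14.1-fold (log2 -3.81, 95% interval -4.95 to -2.67, limma adjusted p = 0.00266). The second, 50 against 45 DAF, was 6.76-fold (log2 -2.76, interval -4.37 to -1.14, adjusted p = 0.0176), but with a pseudocount of 50 it was -1.45 and did not pass (adjusted p = 0.058). The whole fall from 25 to 50 DAF was -6.90 (interval -8.51 to -5.29, adjusted p = 0.000133), and -5.29 with the pseudocount. The other VLXB probe set followed it closely (r = 0.994 over the 10 arrays) and fell by 5.35 from 25 to 50 DAF (adjusted p = 0.000258). It did not pass the second step (log2 -1.70, limma adjusted p = 0.0771). Both IDs share the stem Gma.17610.1, so the 2 probe sets may not be independent measures.

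VLXC, a second vegetative type, declined along a similar path at lower signals. It gave 944 and 542 at 25 DAF, 281 and 600 at 30 DAF, 217 and 98 at 40 DAF, 248 and 103 at 45 DAF, and 17 and 55 at 50 DAF. The early arrays exceeded all 6 later ones, but the lowest of them (281) was close to the highest later one (248). The fall from 25 to 50 DAF was 23.0-fold (log2 -4.52, 95% interval -6.22 to -2.83, limma adjusted p = 0.00118), or -2.95 with a pseudocount of 50. From 45 to 50 DAF the value was -2.36 (adjusted p = 0.04), a call lost with the pseudocount (log2 -1.11, adjusted p = 0.111) and after quantile normalization (log2 -2.07, adjusted p = 0.0668). From the 2 early to the 2 middle ages the difference was -1.83 and missed the threshold (adjusted p = 0.0511), which it passed under 7 of 16 alternatives.

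LOX9 had the largest fitted fall among the leading probe sets. Its leading probe set gave 5703 and 4413 at 25 DAF, 3302 and 4433 at 30 DAF, 71 and 53 at 40 DAF, 173 and 29 at 45 DAF, and 89 and 4 at 50 DAF. The 4 early arrays ran from 3302 to 5703 and the 6 later ones from 4 to 173, with no overlap. The fall was -6.05 from the 2 early to the 2 middle ages (95% interval -7.62 to -4.48, limma adjusted p = 0.00155) and -8.01 from 25 to 50 DAF (interval -10.23 to -5.79, adjusted p = 0.00027). Since the later signals were low, the size of the fall is loosely set, and with a pseudocount of 50 the value for 25 to 50 DAF was -5.62.

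The other 4 LOX9 probe sets did the same. Their early arrays lay between 131 and 4394 and their later arrays between 1 and 156, without overlap in any of them. From 25 to 50 DAF their log2 changes were -6.56 to -5.39, each past the limma test. The 5 probe sets correlated pairwise at 0.696 to 0.93 over the 10 arrays. Only GmaAffx.81415.1.S1_at also passed from 45 to 50 DAF (log2 -4.31, limma adjusted p = 0.00563), where it went from 37.9 ± 3.36 to 2.04 ± 1.02, below the low-signal limit on both sides, and with the pseudocount it was -0.36 (adjusted p = 0.424).

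LOX7 followed LOX9. The leading of its 4 probe sets gave 2019 and 1363 at 25 DAF, 502 and 1934 at 30 DAF, 79 and 74 at 40 DAF, 41 and 31 at 45 DAF, and 54 and 6 at 50 DAF. Again the early arrays were all above the later ones. Its change was -4.62 from the early to the middle ages (95% interval -6.12 to -3.12, limma adjusted p = 0.00355) and -6.48 from 25 to 50 DAF (interval -8.61 to -4.35, adjusted p = 0.000599), or -4.21 with a pseudocount of 50. Gma.10969.1.S1_a_at went from 1300 ± 363 at 25 DAF to 4.30 ± 2.17 at 40 DAF and 36.95 ± 15.96 at 50 DAF. Its rise from 45 to 50 DAF (log2 3.21, adjusted p = 0.0217) lay below the low-signal limit on both sides and was 0.91 with the pseudocount (adjusted p = 0.173). Of the remaining 2, Gma.10969.1.S1_x_at fell from 25 to 50 DAF (log2 -5.26, adjusted p = 0.0183), and Gma.10969.1.S1_at gave -3.58 (adjusted p = 0.0757).

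LOX10 was near the bottom of the scale throughout. It gave 59 and 28 at 25 DAF, 38 and 26 at 30 DAF, 29 and 3 at 40 DAF, 38 and 20 at 45 DAF, and 7 and 6 at 50 DAF. Since 9 of its 10 arrays were under 50, the files do not show whether its transcript was present. From 25 to 50 DAF it differed by -2.66 (95% interval -5.18 to -0.14, limma adjusted p = 0.0833).

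**Figure D2:**
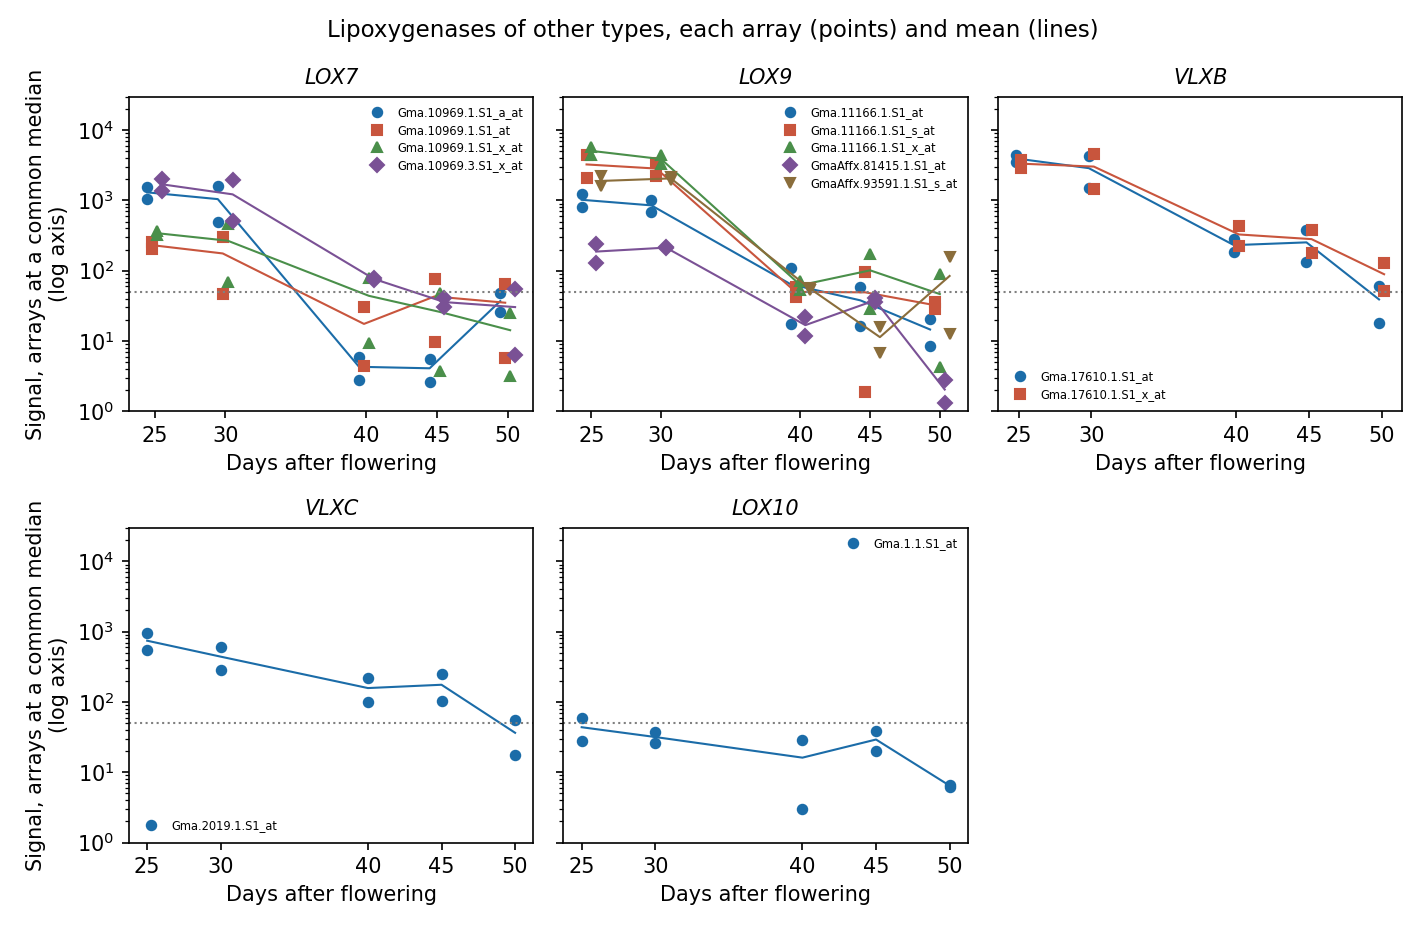
Signals of LOX7, LOX9, VLXB, VLXC and LOX10 (vertical axis, logarithmic, arrays brought to a common median) against days after flowering, with a point per array, lines through the means of 2 arrays, and a dotted line at the low-signal limit of 50. At 40 DAF the leading probe sets stood at 76.4 ± 3.74 for LOX7, 62.2 ± 12.5 for LOX9 and 231 ± 68.0 for VLXB, which was at 39.0 ± 30.0 by 50 DAF.

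The order of the levels was thus much alike among the 4 declining genes. In the leading probe sets of LOX7, LOX9, VLXB and VLXC the mean was highest at 25 DAF, second at 30 DAF and lowest at 50 DAF. Neighbours in that order could not be told apart between 25 and 30 DAF or between 40 and 45 DAF. For LOX7 and LOX9 the same held between 45 and 50 DAF (limma adjusted p = 0.504 and 0.188). Their lowest place at 50 DAF thus rests on signals near the low-signal limit. No member passed the limma test from 25 to 30 DAF, where 0.0106% of all probe sets did and 0 of 17 members had an unadjusted p under 0.05. From 40 to 45 DAF again no member passed, against 0% of all probe sets, and 1 of 17 had an unadjusted p under 0.05. The single call from 40 to 45 DAF under any alternative arose without 45 DAF replicate 1.

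From 30 to 40 DAF, 3 of 17 members fell past the threshold, against 0.481% of all probe sets. They were Gma.10969.1.S1_a_at of LOX7 (log2 -7.78, limma adjusted p = 0.00873) and, of LOX9, the leading probe set (log2 -5.96, adjusted p = 0.0307) and GmaAffx.93591.1.S1_s_at (log2 -5.21, adjusted p = 0.0281). VLXB missed it (log2 -3.49, interval -5.10 to -1.87, adjusted p = 0.0584). All 13 probe sets of the other types had negative values, with a median of -3.69, against 0.29 for the 4 of the seed types and 0.02 for all probe sets. The number of calls depended on single arrays, with 9 without either array of 45 DAF, 1 without either array of 25 DAF or without 30 DAF replicate 1, and 0 without 30 DAF replicate 2 or 40 DAF replicate 2. It was 2 without 40 DAF replicate 1, 9 with a pseudocount of 50, and 0 when prior variances did not follow signal. The count over all probe sets, in either direction, moved too, from 436 to 2447 without either array of 45 DAF, 91 without either of 25 DAF, 164 without 30 DAF replicate 1, 12 without 30 DAF replicate 2, 131 and 0 without 40 DAF replicates 1 and 2, 828 with the pseudocount and 0 without the variance trend.

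When the 2 middle ages were set against the 2 early ones, 10 of 13 probe sets of the other types fell and none of the 4 of the seed types did. Of all probe sets, 7.07% fell in this comparison. For the seed types the limma test found no call, and 0 of 4 had an unadjusted p under 0.05. The median change was -3.81 in the other types, 0.16 in the seed types and 0.01 over all probe sets. The 3 that did not pass were VLXC, LOX10 and Gma.10969.1.S1_at of LOX7. In 10 of 13 probe sets of the other types, and in 0 of 4 of the seed types, all 4 arrays of 25 and 30 DAF lay above all 6 later arrays, which was so for 9.45% of all probe sets.

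Between 45 and 50 DAF, 4 members fell, which were LOX2, the leading VLXB probe set, VLXC and 1 probe set of LOX9, and 1 rose, the LOX7 probe set with low signals named above. Over all probe sets 12.6% fell and 18.6% rose in this interval. With a pseudocount of 50, LOX2 was the only member called. Without 50 DAF replicate 1 the count of 5 became 3.

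From 25 to 50 DAF, 12 of 17 members fell by limma and none rose, also at an unadjusted p under 0.05, against 19.3% of all probe sets that fell and 24.6% that rose. The 12 were LOX2, 3 of 4 probe sets of LOX7, all 5 of LOX9, both of VLXB and VLXC. The median was -5.39 over the 13 probe sets of the other types and 0.17 over all probe sets, while the 4 seed-type values ran from -1.68 to 0.25. The values of 25 to 50 DAF share the arrays of 25 DAF with the comparison of early and middle ages and those of 50 DAF with the comparison of 45 and 50 DAF. The counts of 25 against 50 DAF were 11 to 13 with each array left out in turn.

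**Figure D3:**
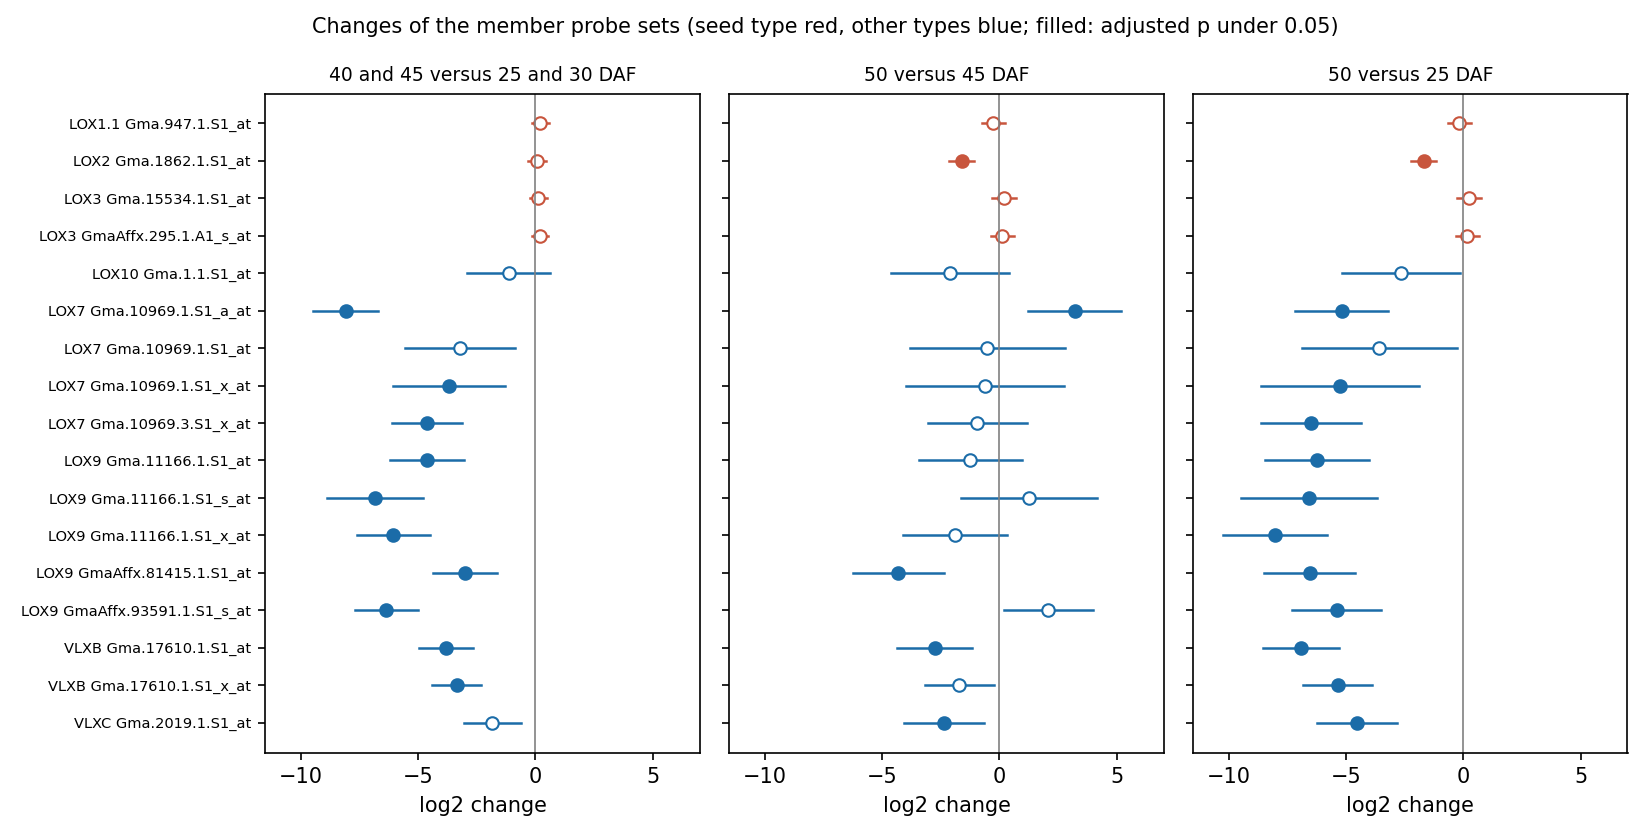
Log2 changes of the 17 member probe sets (horizontal axes) in 3 comparisons of seed ages, with 95% intervals as lines, seed types in red, other types in blue, and filled points where the limma adjusted p was under 0.05. From 25 to 50 DAF the other types lay between -8.01 and -2.66 and the seed types between -1.68 and 0.25.

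Lipoxygenase genes that lie side by side in the genome took different courses. In the RefSeq annotation of assembly Glycine_max_v4.0, LOX2, LOX1.1, LOXB1 and LOX7 follow one another on chromosome 13 with 0 other protein-coding genes between neighbours. Of this row LOX1.1 did not pass the test over time, LOX2 was lower only at 50 DAF, and LOX7 was lower at 40 and 45 DAF than at the early ages. On chromosome 15, LOX3 and VLXB are separated by 1 protein-coding gene, and there LOX3, which did not pass over time, stood beside the falling VLXB. VLXC lies on chromosome 7 next to LOC547835, 248 protein-coding genes from LOX9, and LOX10 lies on chromosome 8. The array files name no genome build, so no positions are given.

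Probes of such related genes can share sequence. Of the 17 members, 9 have IDs with the plain ending _at, 4 end in _x_at (some probes may bind other sequences), 3 in _s_at and 1 in _a_at (probes shared among transcripts). Among the plain ones, 4 of 6 of the other types and 1 of 3 of the seed types (LOX2) fell from 25 to 50 DAF, and all of these were also called over time. Of all probe sets, 19.3% fell from 25 to 50 DAF and 24% were called over time. The leading probe sets of LOX7 and LOX9 end in _x_at, so their signals may include other lipoxygenases, whereas those of VLXB, VLXC, LOX1.1, LOX2 and LOX3 have the plain ending.

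Several lipoxygenase probe sets fell outside the rule. LOXB1, also known as the vegetative storage protein VSP94, has 4 probe sets, of which 0 passed over time by limma, 1 fell from the early to the middle ages and 1 rose from 25 to 50 DAF. The probe set that rose lay between 2.7 and 48.5 on every array up to 45 DAF, under the low-signal limit. It gave 148 and 78 at 50 DAF. Of all probe sets, 24% passed over time and 7.07% fell from the early to the middle ages. From 25 to 50 DAF, 19.3% of them fell and 24.6% rose. LOC547835, whose synonyms include loxA, has 5 probe sets, of which 3 passed over time and fell both from 25 to 50 DAF and from the early to the middle ages. Its probe set Gma.7625.1.S1_s_at went from 2492 ± 181 at 25 DAF to 577 ± 70.6 at 40 DAF and stood at 566 ± 107 at 50 DAF. A probe set shared by VLXB, LOX7 and LOXB1 also fell (log2 -3.05 from 25 to 50 DAF, adjusted p = 0.00475). GmaAffx.27496.1.S1_at, named a lipoxygenase in the study's own annotation, which listed it on the strength of these samples, passed over time but lay under 50 on all 6 arrays from 40 DAF onward.

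The replicates of 30 DAF differed for part of the family, as did those of other ages. For LOX7, VLXB and VLXC, replicate 2 exceeded replicate 1 by 2.14-fold to 6.74-fold in all 7 probe sets. For LOX9 the ratio was 1.02 to 1.54, for LOX10 0.69, and for the seed types 0.765 to 0.891. Of all probe sets, 18% differed by more than 2-fold between these arrays. The summed signal of the 11 probe sets of vegetative storage proteins other than LOXB1 differed in the same direction, at 2232 in replicate 1 and 4486 in replicate 2. This holds for the sum and not for every probe set in it. Summed signals were 113400 and 118100 for green tissue genes and 133700 and 164800 for seed coat genes. Late maturation genes, which rise with age, gave 567900 in replicate 1 and 419300 in replicate 2. The part of seed age or tissue makeup in this gap was not tested.

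Summed signals of seed coat and green tissue markers were also lower at the later ages, though not through all of their genes. The 6 probe sets of seed coat genes (SCB1, HPS, SSTP-1, PRX2 and Ep) had a summed signal of 175500 to 178500 at 25 DAF, 133700 to 164800 at 30 DAF, 110300 to 128500 at 40 DAF, 60440 to 111300 at 45 DAF and 25770 to 26670 at 50 DAF. Of these, 5 fell from 25 to 50 DAF and 2 from the early to the middle ages, against 19.3% and 7.07% of all probe sets. The latter 2 were SCB1, from 17270 ± 1780 at 25 DAF to 111 ± 20.8 at 40 DAF, and Gma.227.1.S1_at of SSTP-1. That probe set went from 42800 ± 137 to 1226 ± 89.3, while the others of the list did not pass. The 11 probe sets of green tissue genes (chlorophyll a/b-binding CAB3 and Rubisco activases) summed to 135100 to 161600 at 25 DAF, 113400 to 118100 at 30 DAF, 27220 to 48760 at 40 DAF, 37330 to 46500 at 45 DAF and 22500 to 31180 at 50 DAF. Of these, 3 fell from the early to the middle ages, and from 25 to 50 DAF 4 fell and 1 rose. The part of seed coat and green tissue in the fall of LOX7, LOX9, VLXB and VLXC was not tested. In whole seeds the summed signal of late maturation genes rose from 455000 to 467900 at 25 DAF to 2271000 to 2493000 at 50 DAF. Of their 37 probe sets, 33 were higher, against 24.6% of all probe sets. Of the 16 cotyledon storage probe sets, 5 fell and 2 rose from 25 to 50 DAF.

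**Figure D4:**
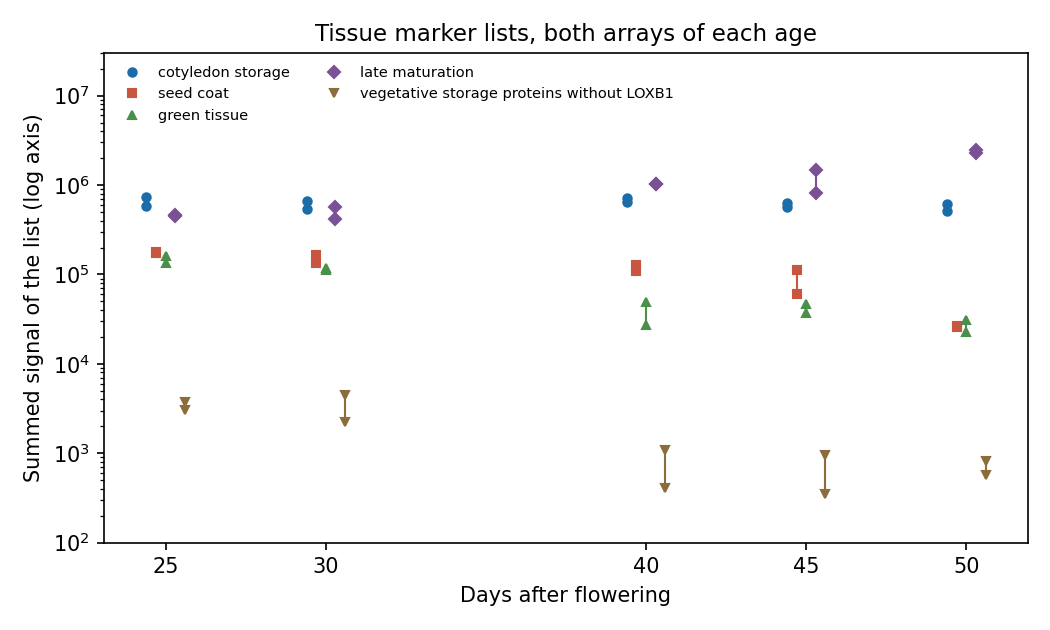
Summed signals (vertical axis, logarithmic) of 4 tissue or stage marker lists and of the vegetative storage proteins against days after flowering, with a point per array and a line joining the 2 arrays of an age. The sums of green tissue genes and vegetative storage proteins were lower on every array from 40 DAF onward than on any earlier array, and the cotyledon storage sums stayed between 512200 and 735400.

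Enzymes and responses around the lipoxygenase step were counted from lists of gene symbols. In the allene oxide branch, which leads to jasmonates, 7 of 11 probe sets fell and 1 rose from 25 to 50 DAF, with a median of -1.79. Of all probe sets, 19.3% fell and 24.6% rose. Allene oxide cyclase, which shapes the jasmonate ring, fell in the AOC3 probe sets (log2 -4.70, limma adjusted p = 0.000204, and -4.02, adjusted p = 0.000346), in AOC6 (log2 -4.38, adjusted p = 0.00807) and in AOC4 (log2 -3.31, adjusted p = 0.0282). The 1 that rose was CYP74A1, an allene oxide synthase by its symbol (log2 0.83, adjusted p = 0.0171). Unlike the declining lipoxygenases it was higher at 40 DAF (4176 ± 807) than at 25 DAF (1513 ± 187), and none of the 11 fell from the early to the middle ages, where 2 rose. The hydroperoxide lyase list held 1 probe set, LOC100810890, also counted in the allene oxide branch, which rose from the early to the middle ages (log2 0.63, adjusted p = 0.0215).

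In the list of jasmonate perception and response, 3 of 10 probe sets rose and 2 fell from 25 to 50 DAF. These counts were near the 24.6% and 19.3% of all probe sets that rose and fell. All 3 that rose belong to COI1, the jasmonate receptor subunit, with log2 values of 3.99, 4.90 and 4.99, while the other 3 probe sets of COI1 did not pass. The leading one, Gma.4474.1.S1_s_at, went from 498 ± 56.3 at 25 DAF to 14850 ± 556 at 50 DAF. Both that fell belong to LOC100778559 (synonym JAZ1), a repressor of jasmonate responses (log2 -1.73, limma adjusted p = 0.0013, and -1.33, adjusted p = 0.0322). Its other probe sets did not pass (log2 -0.79, limma adjusted p = 0.241, and -2.71, adjusted p = 0.0973). Among the vegetative storage proteins other than LOXB1, 4 of 11 probe sets fell from the early to the middle ages and 2 from 25 to 50 DAF. The shares of all probe sets were 7.07% and 19.3%. The 2 from 25 to 50 DAF were both of VSPA (log2 -3.76, limma adjusted p = 0.00216, and -3.37, adjusted p = 0.00785).

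Of the desaturases that supply linoleic and linolenic acid, 2 of 13 probe sets rose and 3 fell from 25 to 50 DAF, and none passed from the early to the middle ages (limma, 0 calls, and the median change was 0.03). FAD7-2, a plastid desaturase, rose (log2 3.45, adjusted p = 0.00054). FAD3B, which makes linolenic acid in the endoplasmic reticulum, fell (log2 -1.85, adjusted p = 0.00159), as did both FAD8.2 probe sets with signals above the array median (log2 -1.63, adjusted p = 0.000406, and -1.38, adjusted p = 0.00202). The lipid release list held 1 probe set, of SDP1-3, a triacylglycerol lipase by its symbol (log2 0.92, adjusted p = 0.0675), and the alpha-dioxygenase list held 0. Against 19.3% and 24.6% of all probe sets that fell and rose, these small lists are a description only.

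The probe sets most alike to each leading probe set were sought among 1124 with an informative symbol and a mean of at least the array median at 1 or more ages, by Pearson correlation of centred log2 signals over the 10 arrays. As 2 arrays share each age, these points are not independent, and a gene with the same single step scores high. For LOX2 they were MFT, a phosphatidylethanolamine-binding protein (r = 0.983), FAD8.2 (r = 0.982) and the transcription factor WRKY22 (r = 0.977). Mean MFT signals were 36830, 37170, 39060 and 32450 at the first 4 ages and 1861 at the last. For LOX7 and LOX9 the first was in both cases PIP2-13, a plasma membrane aquaporin (r = 0.974 and 0.975), and the second GER10, a germin-like protein (r = 0.969 and 0.963). For VLXB they were SGF14f, a 14-3-3 protein (r = 0.988), EF1BGAMMA4 (r = 0.984) and the glutathione transferase GSTU1 (r = 0.983), and for VLXC NAC6 (r = 0.96), CAB3 (r = 0.959) and MT2 (r = 0.956). LOX3 was most like ARF (r = 0.918), the basic globulin BG7S-1 (r = 0.905) and the storage protein CG-BETA-1 (r = 0.904), and LOX1.1 like BZIP85 (r = 0.935), N6L (r = 0.871) and MYB83 (r = 0.868). LOX10, whose signals were low, had SIP1-6 first (r = 0.929), then SC-04 (r = 0.826) and ALDH6B1 (r = 0.809).

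Among the leading probe sets themselves, the highest correlations were those of LOX7 with LOX9 and of VLXB with VLXC (r = 0.97 for both). LOX7 and LOX9 correlated with VLXB at 0.886 and 0.879. LOX2 gave 0.517 with LOX7 and 0.654 with VLXB, and LOX1.1 between -0.22 and 0.06 with the 4 declining genes. The leading LOX3 probe set ran against them, with values from -0.77 for VLXC to -0.59 for LOX9, although its own change over time did not pass the test. These correlations were taken on centred signals only. With other scalings the LOX3 change from 25 to 50 DAF had the opposite sign (-0.14 after quantile normalization, -0.21 without centring).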

How the data were processed

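The 10 arrays, 2 biological replicates at each of 5 seed ages, were scanned and processed by the authors with Microarray Suite 5.0. The deposited intensity values are its signals on a linear scale, scaled chip by chip, for 37593 soybean probe sets without detection calls. Of these, 8677 carry a single gene symbol in the platform annotation, 370 carry several and 28546 carry none. All 8 member genes matched the RefSeq table of assembly Glycine_max_v4.0.

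The median log2 signal of each array was subtracted from its log2 signals. Age and replicate number entered a linear model fitted to all probe sets with limma 3.58.1 in R 4.3.3, with prior variances that follow signal (residual degrees of freedom 4, prior 5.08). The overall F-test was called at an adjusted p under 0.01, pairs of ages under 0.05, by Benjamini-Hochberg. The number of arrays limits the precision, and p-values measure the spread between pooled seed samples of 1 field. Every member probe set is described or counted, with the one of highest mean signal leading for its gene. Pathway genes are named by the largest called change from 25 to 50 DAF, up to 4 a list, and the 3 most alike probe sets by correlation. Further pathway and marker genes were named after their values were seen. The members, lists and tests were chosen with earlier results of these data known. Alternatives were a model without the replicate number, other scalings, variance priors, filters, thresholds and a pseudocount of 50, the F-test of the methods, robust variances by statmod 1.5.0, and each array left out in turn. Omitting both arrays of 45 DAF was chosen after seeing the data.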

Additional observations from a re-analysis of the deposited data

How the results depend on the processing

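Of 17 members, 11 passed over the 5 ages. The count was 0 with variances that did not follow signal, as for all 37593 probe sets. It was 7 with a filter at the median signal, and 7 to 11 with each array left out. With the F-test of the methods and Benjamini-Hochberg adjustment it was 0, whereas the study converted such p-values to q-values. From 30 to 40 DAF the 3 calls became 5 without the replicate block, 0 without the variance trend, 9 with a pseudocount of 50, 1 at an adjusted p under 0.01, 9 without both arrays of 45 DAF (chosen after seeing the data) and 0 to 9 with each array left out. From 45 to 50 DAF the 5 calls became 3 without the trend, 2 with the median filter, 1 with the pseudocount, 2 at an adjusted p under 0.01 and 3 to 6 with each array left out. From 40 to 45 DAF there were 0 to 1 calls with each array left out. Counts for 25 against 50 DAF (11 to 13 with each array left out) and for early against middle ages (8 to 11) kept within 1.5 times of 12 and 10 under the alternatives tried. For these shifts the cause was not tested. Under the median filter 18797 probe sets were tested rather than 37593.

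LOX3 changed sign from 25 to 50 DAF, to -0.14 after quantile normalization and -0.21 without centring, and LOX1.1 to 0.0058 without 25 DAF replicate 2 (-0.34 to 0.0058 with each array left out). Without centring, the median change of all probe sets from 25 to 50 DAF was -0.29, against 0.17 with it. Replicate numbers did not pair the samples, since replicate differences correlated at -0.0336 to 0.0302 between ages. Omitting the replicate block moved no other count by over 1.5 times. Below a signal of 50, the size of a fall is limited by background, and calls from low to lower signal are not reliable.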
